A study of Mus musculus with 10 samples.

Results

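The late response of Lewis lung carcinoma cells to an acid medium was read from 4 arrays, those of cells kept for 12 h at pH 6.4 or at pH 7.4, out of 10 in the series. Lewis lung carcinoma is a lung tumour line of C57BL/6 mice. The cells stably expressed TDAG8 (gene symbol Gpr65), a receptor that senses extracellular protons, or carried the empty control vector, and these are named below as the TDAG8 line and, for the vector, the control line. All 4 groups had been starved of serum for 12 h in an albumin medium at pH 7.4 and then received fresh albumin medium at pH 6.4 or 7.4, and every array held RNA pooled in equal amounts from 4 cultures. The series, whose stated aim was to find genes regulated by TDAG8, has 1 array for each line and condition, so there are no replicates. The value at pH 7.4 was subtracted from that at pH 6.4 within each line, and the 2 lines, which share the acid but not the receptor construct, served as matched repeats with 2 arrays a side. The p-values therefore rest on the spread between these arrays and on a spread borrowed from genes of like signal. The fit at 12 h had 1 residual degree of freedom from the arrays and 8 prior ones from the borrowed spread. A difference that TDAG8 itself makes adds to the spread between the arrays.

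Tumour cells meet acid where glycolysis releases more lactate and protons than the blood carries away. Outside the cell, protons act on proton-sensing receptors such as TDAG8, which couples to cyclic AMP, and on channels. A fall of the pH inside slows glycolysis, changes the ratio of metabolites and alters growth signalling, so that genes of inflammation, nutrient sensing, lipid synthesis and the cell cycle can all follow. By 12 h, transcripts made in the first hours have often declined again and the products of early regulators have had time to act.

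The values are deposited probe-set signals, scaled by the authors to the same trimmed mean of 100 on every array, with array medians of 12.0 to 13.8 on the 4 arrays. The ratio of the 3′ to the 5′ control probe set was 0.756 to 0.836 for Gapdh and 1.27 to 1.35 for Actb. The probe set of Gpr65 read 0.9 at pH 6.4 and 1.9 at pH 7.4 with the receptor construct, and 0.6 and 4.9 without it, so it did not detect the construct and gives no check of the line labels. Of 8 lung epithelium markers 0 reached a signal of 50, with Sftpc at 0.5 to 7.5 and Nkx2-1 at 0.5 to 9.2. The epithelial marker Krt8 read 1242 to 2160 and Cdh1 at most 5.3. Among the fibroblast markers, Col3a1, Lum, Dcn, Pdgfra and Pdgfrb all read above 50 on every array, while Col1a1 and Fap read at most 4.0. Of 9 leukocyte markers 1 reached 50 (Cd14), with Ptprc at most 5.2, and the sum of the 9 was 128 to 144 on the 4 arrays.

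After 12 h of acid, the cells differed from those at neutral pH in many transcripts, among them chemokine genes that rose and cholesterol synthesis genes that fell. With the line as a block, 1856 of 12161 genes tested were higher at pH 6.4 (15.3%) and 1941 lower (16%) by limma at a Benjamini-Hochberg adjusted p under 0.05, and 5109 had an unadjusted p under 0.05. None of the 3797 had opposite signs in the lines, which the test nearly fixes, as the difference between the lines enters its measure of spread. A limit of 1 on the log2 scale was passed upwards in both lines by 335 genes (2.75%) and downwards in both lines by 547 (4.5%). Of these 882 genes, 853 also passed the test, which uses the same 4 arrays. Of the 882, 528 had more than 1 probe set, and for 338 of those all probe sets had the same sign. The opposite, a change of 1 or more up in one line and down in the other, was seen for 40 genes, of which 1 had a signal of 50 or more. Each line alone moved more genes past that limit. In the control line 724 genes were higher and 1059 lower by 1 or more, of which 46.3% and 51.7% moved alike in the other line, and in the TDAG8 line 709 and 954 were, of which 47.2% and 57.3% moved alike. Across the 8805 genes that reached a signal of 50 on any of the 4 arrays, the responses of the lines correlated at 0.837 (Pearson), and across all 12161 at 0.67, where genes are not independent replicates and the arrays share their processing. Of the 3797 called genes 48.9% were higher. That share became 62.5% with arrays centred on their median, which moved the median of all genes from 0.02 to 0.12, and 36.2% when limma used a single prior variance in place of one that follows the signal (no trend). That last fit, which draws less on the similarity of genes of like signal, called 660 genes, 239 higher and 421 lower. All 660 had moved by 1 or more in both lines, on the same 4 arrays that the test used.

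**Figure D1:**
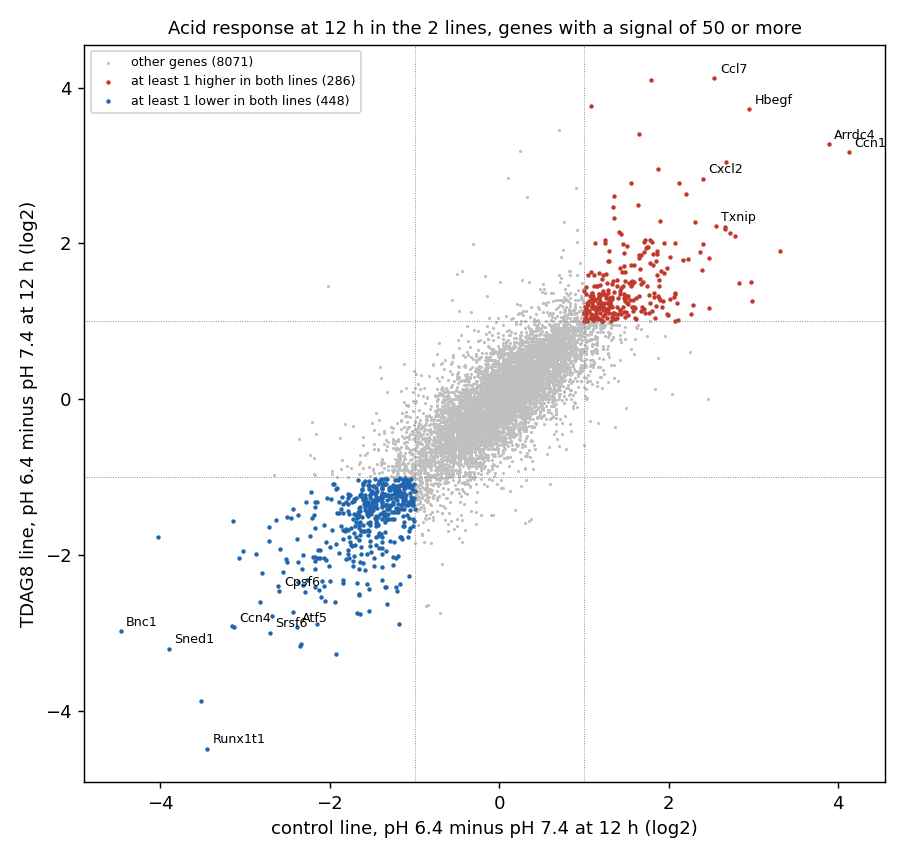
The log2 difference between pH 6.4 and pH 7.4 at 12 h in the control line (horizontal axis) and in the TDAG8 line (vertical axis), 1 point for each of the 8805 genes that reached a signal of 50 on any of the 4 arrays. Red and blue points are the 286 and 448 genes that were higher and lower by 1 or more in both lines, and the dotted lines mark that limit.

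The 12 genes of highest rank among those that rose included 4 chemokine genes, a growth factor gene and 2 genes that respond to sugar. Arrdc4, an arrestin-domain gene whose transcription follows sugar phosphates, read 12.5 at pH 7.4 and 206 at pH 6.4 in the control line, and 17.6 and 190 in the TDAG8 line. Ccn1, a secreted protein that binds integrins in the matrix, read 38.4 and 674, and 36.4 and 338. Hbegf, a membrane-bound ligand of the EGF receptor, read 39.0 and 300, and 28.7 and 393. For all 3 genes both acid arrays lay far above both neutral ones, and the mean rises were 12-fold, 12.6-fold and 10.1-fold (log2 3.58, SE 0.21, 3.65, SE 0.22, and 3.33, SE 0.21, limma adjusted p = 4.35e-05 for each). The chemokine genes Ccl7, Ccl2, Cxcl2 and Cxcl10 followed, with rises of 10.1-fold, 5.38-fold, 6.14-fold and 4.89-fold. Txnip, the thioredoxin-interacting protein that restrains glucose uptake, rose 5.23-fold, from 508 and 677 to 3150 and 2958. The other genes of the highest 12 were Spata5l1, of the AAA ATPase family (7.3-fold), the angiomotin-like gene Amotl2 (5.42-fold), the retinol dehydrogenase gene Rdh9 (5.36-fold) and Ankrd33b, an ankyrin-repeat gene (5.35-fold). In all 12 the groups did not overlap, which the ranking by the smaller difference of the 2 lines favours. For Ankrd33b the rise rests on the probe set used. Its others read at most 36.4, and differed by -0.17 and -0.15 in the control line and by -0.61 and 0.41 in the TDAG8 line.

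The 12 genes of highest rank among those that fell had varied roles. Runx1t1, a transcriptional corepressor, read 208 at pH 7.4 and 15.2 at pH 6.4 in the control line and 239 and 8.0 in the TDAG8 line, a 15.7-fold fall (log2 -3.97, SE 0.25, limma adjusted p = 5.05e-05). The zinc finger gene Bnc1 read 827 and 33.1, and 828 and 109 (log2 -3.72, SE 0.29), and Sned1, which encodes a matrix protein, 456 and 25.9, and 382 and 37.8 (log2 -3.55, SE 0.20). Each of these was abundant on both neutral arrays and low on both acid ones, a separation that the ranking favours. Srsf6, a serine-arginine splicing factor, fell from 1550 and 1541 to 242 and 206, and all 4 of its probe sets fell. Cpsf6, a subunit of the factor that picks the polyadenylation site, fell from 592 and 512 to 95.2 and 93.3, but its probe sets differed. Of its 5 other probe sets, 3 differed by -0.51 to -2.56 in both lines, and the other two by -0.20 and 0.44 in the control line and by 0.18 and -0.21 in the TDAG8 line. The rest of the 12 were the matrix-associated Ccn4 (8.12-fold lower), melanophilin Mlph (8.2-fold), the teneurin Tenm4 (6.65-fold), the tight junction scaffold Tjp1 (6-fold), the transcription factor Atf5 (6.3-fold), the adhesion protein Amigo1 (5.66-fold) and Pigh, of the enzyme complex that starts glycosylphosphatidylinositol anchors (6.73-fold). Over the 24 genes the adjusted p lay between 4.35e-05 and 0.000341. All 24 also passed without the trend, but only just, at a limma adjusted p of 0.0487 to 0.0494.

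**Figure D2:**
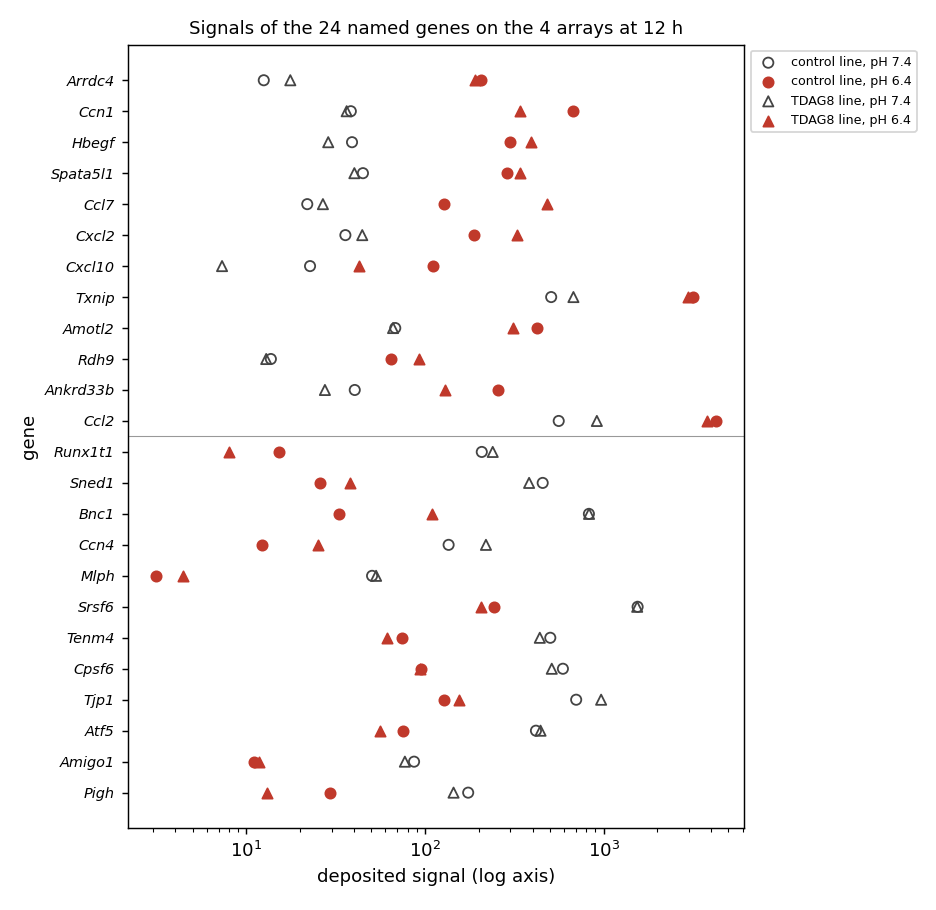
Deposited signal (log axis) of the 12 higher and 12 lower genes on the 4 arrays at 12 h, circles for the control line and triangles for the TDAG8 line, open at pH 7.4 and filled at pH 6.4. In every gene both filled points lie on one side of both open points, for Txnip at 2958 and 3150 against 508 and 677.

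Secreted inflammatory signals were the group with the largest median rise among those described here. Beside the counts of every list below, 15.3% of all genes tested were higher and 16% lower. Of 22 chemokine and cytokine genes 14 were tested, 9 rose and 2 fell, with a median difference of 1.70 on the log2 scale where all genes had 0.02, and 8 rose without the trend. Ccl2, which draws monocytes, read 560 and 4271 in the control line and 916 and 3802 in the TDAG8 line (pH 7.4 and pH 6.4, log2 2.43, SE 0.14). Ccl7, its close relative, read 21.9 and 127, and 26.8 and 484 (log2 3.33, SE 0.32), and the neutrophil attractant Cxcl2 35.8 and 187, and 44.5 and 325 (log2 2.62, SE 0.18). The acid arrays lay above the neutral ones in each, and for Ccl7 the TDAG8 line at pH 6.4 read highest. Cxcl10, an attractant of T cells, rose by 2.29 (SE 0.23). Cxcl1, Il11, Csf1, Cxcl3 and Ccl5, which ranked below these 4, rose too, and the 2 that fell were Cxcl12 (-1.35) and Il18 (-1.23). The calls of Cxcl12, Il18 and Ccl5 were lost without the control pair, and that of Il11 without the TDAG8 pair. Fits without a line's 12 h pair, here and below, take their spread from the arrays at 4 h and before treatment. The tested genes Lif (0.84), Il1b (0.45) and Cxcl5 (-0.32) did not pass.

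NF-kB, the transcription factor that drives many of these genes, also induces its own inhibitors. In the list of NF-kB subunits and feedback genes 7 of 13 tested rose and 1 fell (Vcam1), with a median of 0.70, and 3 rose without the trend. The inhibitor gene Nfkbie rose by 1.86 (SE 0.23), and the ubiquitin-editing inhibitor gene Tnfaip3 from 42.4 and 43.0 to 174 and 110. The subunit genes Relb (1.38, SE 0.17) and Nfkb2 (1.36, SE 0.17) rose alike in both lines. With arrays centred on the median 10 of the list rose.

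Promoter windows are shown for 2 chemokine genes that rose, the 250 bases before the annotated start in mouse RefSeq, build GRCm38.p6, with matches to the NF-kB motif GGGNNTTTCC on either strand in capitals. The Cxcl1 window is chr5:90890995-90891244 on the plus strand and that of Cxcl2 is chr5:90903649-90903898 on the plus strand. Cxcl1 stands outside the ranking by which genes are named and was chosen after its values were seen, 794 and 3822 in the control line and 689 and 4342 in the TDAG8 line.
Cxcl1: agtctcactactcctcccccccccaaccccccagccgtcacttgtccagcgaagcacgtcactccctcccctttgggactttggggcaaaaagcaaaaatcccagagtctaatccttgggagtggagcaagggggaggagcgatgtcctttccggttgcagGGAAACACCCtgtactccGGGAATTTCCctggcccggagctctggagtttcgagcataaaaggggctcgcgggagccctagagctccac
Cxcl2: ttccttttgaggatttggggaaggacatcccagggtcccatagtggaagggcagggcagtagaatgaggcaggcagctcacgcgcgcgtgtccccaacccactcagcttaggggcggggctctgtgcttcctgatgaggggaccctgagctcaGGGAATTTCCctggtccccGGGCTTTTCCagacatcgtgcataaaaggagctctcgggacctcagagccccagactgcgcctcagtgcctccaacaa
In both windows 2 matches lie close together, starting 89 and 71 bases before the start in Cxcl1 and 97 and 78 bases before it in Cxcl2. In Cxcl1 they lie on opposite strands, and in Cxcl2 both lie on the strand shown. Of the 11 chemokine and cytokine genes called in either direction 8 had a promoter in the table, and 4 of these held the motif (Cxcl1, Cxcl2, Cxcl3 and Csf1), as did 3 of 5 from the NF-kB list (Nfkb2, Nfkbia and Tnfaip3). Of all 32851 promoter windows of that length 1.41% held it. A match is a description of the letters only.

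Of 8 tested EGF family ligands and receptors 2 rose, where 15.3% of all genes did. They were Hbegf and Ereg, the latter from 46.4 and 45.3 to 81.7 and 206. Its rise was 0.92 in the control line and 2.17 in the TDAG8 line. Immediate early genes, which respond to stimuli without new protein synthesis, rose in 10 of 16 and fell in 2, with a median of 0.75, and 4 rose without the trend. Without the control pair 8 rose and 1 fell, and without the TDAG8 pair 7 rose and 0 fell. Maff, a small MAF transcription factor, read 71.3 and 316, and 74.3 and 263 (log2 1.98, SE 0.17), and Fosl1, a subunit of AP-1, 175 and 596, and 163 and 666 (log2 1.91, SE 0.15). Both acid arrays were above both neutral ones. Junb, another AP-1 subunit, rose from 67.7 and 75.7 to 184 and 220.4, and Fos rose from 12.1 and 8.0 to 34.6 and 67.9, a call that was lost without the TDAG8 pair. Of 10 tested Krüppel-like factors, zinc finger regulators of growth and stress, 5 rose and 1 fell (1 each way without the trend), with a median of 0.56. Klf10 (1.60), Klf2 (1.07) and Klf5 (1.11) rose, and Klf3, a repressor, fell from 569 and 677 to 144 and 222, although 4 of its 7 probe sets had that sign. The call of Klf2 was lost without the TDAG8 pair.

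Among 14 tested cAMP and CREB targets 7 rose and 2 fell, with 1 rising without the trend. Some members read higher in acid in the TDAG8 line, and that contrast of the lines was not tested here. The nuclear receptor gene Nr4a3 rose by 1.79 in the control line and 4.09 in the TDAG8 line, with signals of 1.8 and 10.8, and 3.6 and 102, and Ptgs2, the inducible cyclooxygenase, by 1.65 and 3.41. Without either line's pair the call of Nr4a3 was lost. Per1 rose alike, by 1.38 (SE 0.17), and Nr4a1 by 0.79 (SE 0.24), a call lost without either line's pair. Without the control pair 4 of the list rose and 0 fell, and without the TDAG8 pair 2 rose and 2 fell. Of 11 tested TGF-beta and BMP feedback genes 5 rose and 2 fell, with a median of 0.62, and 2 rose without the trend. Without the control pair 4 rose and 1 fell, and without the TDAG8 pair 3 rose and 2 fell. Skil, a repressor of SMAD signalling, rose by 1.32 (SE 0.17), with 1 of its 2 probe sets of that sign. Tgfb2 rose by 1.62 from signals of at most 8.1 (a call lost without either line's pair), and Tgif1 by 0.74. Id2, an inhibitor of differentiation, fell by 0.98.

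YAP and SRF are regulators that respond to cell shape and the actin cytoskeleton. Of 9 tested genes of the CCN and YAP list 5 rose and 0 fell, with a median of 0.83, and 2 rose without the trend. Ccn1 and Amotl2 are given above. Ankrd1, a nuclear and sarcomeric protein, read 5.7 and 71.6 in the control line and 5.5 and 25.5 in the TDAG8 line, and Ajuba, a LIM-domain scaffold, 197 and 844, and 213 and 546. The call of Ankrd1 was lost without the control pair. The genes of the regulators themselves, Yap1 (0.13), Wwtr1 (-0.09) and Tead1 (0.23), did not pass. Of 14 tested SRF targets and contractile genes 6 rose and 0 fell, with a median of 0.34. The myosin light chain Myl9 rose by 1.75 (SE 0.20), smooth muscle actin Acta2 by 1.53 (SE 0.16), Srf itself by 1.03 (SE 0.17) and vinculin, Vcl, by 0.69 (SE 0.14), and 2 of these rose without the trend. With arrays centred on the median 10 of the 14 rose.

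The windows of Ccn1 (chr3:145649986-145650235, minus strand) and Amotl2 (chr9:102717554-102717803, plus strand) are shown because both genes rank among the 12 highest and hold the TEAD motif GGAATG, capitalised on either strand, where CATTCC is its other strand. TEAD proteins are the DNA-binding partners of YAP.
Ccn1: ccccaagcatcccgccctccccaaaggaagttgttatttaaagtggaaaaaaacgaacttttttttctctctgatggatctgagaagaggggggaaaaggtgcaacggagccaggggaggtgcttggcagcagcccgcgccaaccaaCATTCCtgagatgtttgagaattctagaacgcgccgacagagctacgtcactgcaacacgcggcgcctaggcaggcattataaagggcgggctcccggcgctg
Amotl2: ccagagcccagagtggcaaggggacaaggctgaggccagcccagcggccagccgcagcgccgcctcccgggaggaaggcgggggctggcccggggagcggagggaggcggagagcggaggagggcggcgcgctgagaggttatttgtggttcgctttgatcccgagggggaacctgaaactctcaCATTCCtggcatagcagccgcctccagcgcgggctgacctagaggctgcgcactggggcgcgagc
The match starts 103 bases before the start in Ccn1 and 65 bases before it in Amotl2. It was present in 4 of the 5 called genes of the list (Ccn1, Ankrd1, Amotl2 and Ajuba), and in 12.6% of all 32851 windows, being only a short motif.

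MondoA and its relative ChREBP bind DNA with Mlx when glucose phosphates accumulate, and Txnip and Arrdc4 are their best known targets. Of 5 tested genes of that list 4 rose and 0 fell, with a median of 1.40, and 3 rose without the trend. Besides Arrdc4 and Txnip, Arrdc3, another arrestin-domain gene, read 169 and 426, and 176 and 488 (log2 1.40, SE 0.14). Mlxip, which encodes MondoA, rose by 0.66 (SE 0.18), from 59.9 and 57.2 to 89.0 and 86.3, and not without the control pair, while Mlx was -0.34 and did not pass. The Txnip window (chr3:96557707-96557956, plus strand) holds a match to the carbohydrate response element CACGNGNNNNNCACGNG, in capitals, the tandem E-box that MondoA and ChREBP bind.
Txnip: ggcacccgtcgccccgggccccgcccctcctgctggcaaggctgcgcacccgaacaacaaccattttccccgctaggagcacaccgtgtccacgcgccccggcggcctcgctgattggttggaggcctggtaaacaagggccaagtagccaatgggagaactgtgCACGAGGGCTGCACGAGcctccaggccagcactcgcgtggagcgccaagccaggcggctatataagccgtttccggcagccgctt
The match starts 85 bases before the start. Of the 4 called genes of the list 1, Txnip, held it, and 0.0457% of all windows did. The motifs were searched separately, and only the unspecified letters between the boxes of this one could hold another of them.

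Of the genes that make cholesterol nearly all fell. Of 19 tested genes 17 fell and 0 rose, where 16% of all genes did, with a median of -0.85 that was close in the control line (-0.94) and the TDAG8 line (-0.78). The sterol dehydrogenase gene Nsdhl read 1395 and 446 in the control line and 1405 and 406 in the TDAG8 line (log2 -1.78, SE 0.12, limma adjusted p = 6.12e-05). Mevalonate kinase, Mvk, read 250 and 76.0, and 253 and 61.8 (log2 -1.81, SE 0.17). The methylsterol oxidase gene Msmo1, which acts just before Nsdhl, read 3027 and 978, and 2850.0 and 1039.6 (log2 -1.57, SE 0.11), and the mevalonate decarboxylase gene Mvd fell by 1.20 (SE 0.14). In these 4 genes the neutral arrays of the 2 lines nearly coincided, as did the acid arrays. Only these 4 fell without the trend. The genes that did not pass were Pmvk (-0.31) and Srebf2 (-0.20), which encodes the sterol-sensing transcription factor of the pathway. With arrays centred on the median 15 fell.

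The windows of Nsdhl (chrX:72918271-72918520, plus strand) and Mvk (chr5:114444019-114444268, plus strand) are shown as the 2 genes that fell most, with CCAAT boxes in capitals on either strand. The CCAAT box is the site of NF-Y, a common partner of the sterol regulatory factors.
Nsdhl: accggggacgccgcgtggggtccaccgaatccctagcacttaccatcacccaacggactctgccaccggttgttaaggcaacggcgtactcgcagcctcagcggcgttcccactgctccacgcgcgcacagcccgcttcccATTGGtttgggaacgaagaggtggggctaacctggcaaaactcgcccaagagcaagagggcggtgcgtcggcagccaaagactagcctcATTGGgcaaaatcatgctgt
Mvk: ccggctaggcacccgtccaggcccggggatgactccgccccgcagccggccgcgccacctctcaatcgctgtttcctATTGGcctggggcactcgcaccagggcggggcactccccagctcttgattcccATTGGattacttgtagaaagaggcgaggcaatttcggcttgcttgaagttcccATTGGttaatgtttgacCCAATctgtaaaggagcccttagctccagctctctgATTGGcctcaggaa
Nsdhl holds 2 boxes and Mvk 5. Of the 17 genes that fell 13 had a promoter in the table, and all 13 held a CCAAT box in any of their windows. Of all single windows 33.8% held one. The letters TCACNCCAC, one form of the sterol response element, were in 1 of the 13 (Hmgcs1) and in 1.05% of all windows.

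Fatty acid synthesis genes fell in the same way, 10 of 13 with 0 higher and a median of -0.72 (3 without the trend). The elongase gene Elovl6 read 1110 and 426, and 1185 and 417 (log2 -1.51, SE 0.12), and Acsl3, which activates fatty acids, 678 and 288, and 696 and 270 (log2 -1.36, SE 0.14). Acss2, which makes acetyl-CoA from acetate, fell from 594 and 677 to 165 and 297, and the desaturase Fads2 from 455 and 516 to 178 and 227. In each the 2 acid arrays lay below the 2 neutral ones. The CCAAT box was in 4 of the 7 called genes with a window and TCACNCCAC in 0.

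Genes of the hypoxia factor HIF were lower on the acid arrays, 10 of 16 tested with 1 higher (Adm, 0.77, not called without the TDAG8 pair) and a median of -0.89, and 3 were lower without the trend. The mitophagy receptor gene Bnip3 read 724 and 244, and 771 and 338 (log2 -1.44, SE 0.14), and Egln3, an oxygen-sensing hydroxylase, 915 and 328, and 950 and 427 (log2 -1.38, SE 0.14). Pdk1, which encodes a kinase that inhibits pyruvate dehydrogenase, fell by 1.20 (SE 0.13) and Ndrg1, a stress-induced gene, by 1.04 (SE 0.12). All 4 were lower on each acid array than on either neutral one. Glycolysis genes were divided, 2 higher and 5 lower of 14 (2 and 1 without the trend), where 15.3% of all genes were higher and 16% lower. The glucose transporter gene Slc2a3 read 120 and 427, and 150 and 508 (log2 1.81, SE 0.14), and Pfkfb3, which makes the activator of phosphofructokinase, rose by 1.78 (SE 0.18). Pfkl, a phosphofructokinase subunit, fell from 1032 and 957 to 257 and 333, and hexokinase Hk2 by 0.79 (SE 0.12). The list's median of -0.11 turned to 0.06 with arrays centred on the median. Of 10 tested angiogenic and growth factor genes 4 fell and 0 rose, with a median of -0.70, and 0 passed without the trend. They were Angpt1 (-1.10), Angpt2 (-0.80, with 1 of 2 probe sets of that sign), Vegfa (-0.80) and Vegfb (-0.61). None of the 4 passed without the control pair, and without the TDAG8 pair 1 did.

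The amino acid response, driven by ATF4 when amino acids are short, was lower on balance. Of 17 tested genes 11 fell and 0 rose, with a median of -0.94, and 1 fell without the trend, Atf5. Atf5 read 418 and 75.0 in the control line and 443 and 55.8 in the TDAG8 line, nearly the same in both. Others had larger differences in the TDAG8 line, a contrast that was not tested here. Chac1, which degrades glutathione, read 210 and 111 in the control line and 190 and 26.2 in the TDAG8 line, or -0.86 and -2.65 on the log2 scale. Its call was lost without the TDAG8 pair. The pseudokinase gene Trib3 was -0.84 and -2.64, while Ddit4, an inhibitor of mTOR, fell in both lines from 1495 and 1335 to 406 and 696. The list's median was -0.48 in the control line and -1.10 in the TDAG8 line. Aminoacyl tRNA synthetase genes, many of them targets of ATF4, had 6 lower and 1 higher of 19, with a median of -0.09 that turned to 0.09 with arrays centred on the median, and 0 passed without the trend. Among all genes tested 16% were lower and 15.3% higher. The called synthetase genes of highest rank were Iars (-0.87), Cars (-0.88), Farsb (-0.42) and Rars (0.53). Iars was -0.56 in the control line and -1.19 in the TDAG8 line, and Cars -0.46 and -1.31. Without the TDAG8 pair the calls of Cars and Rars were lost, and with arrays centred on the median that of Farsb. Of the 19, 10 fell without the control pair and 2 without the TDAG8 pair.

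Of 6 tested fibroblast markers 5 fell and 0 rose, 2 of them without the trend, and the sum of the 8 markers was 8383 and 7420 at pH 6.4 against 12640 and 13470 at pH 7.4 (control and TDAG8 line). The matrix proteoglycans decorin (Dcn, -1.61, SE 0.13) and lumican (Lum, -1.75, SE 0.18) and the platelet-derived growth factor receptors Pdgfrb (-2.13, SE 0.24) and Pdgfra (-1.52, SE 0.12) fell in both lines. In pooled RNA fewer cells of a kind and less RNA per cell cannot be told apart, and the part of this shift in the results on matrix genes was not tested. Of 17 tested collagens and structural matrix genes 7 fell and 0 rose, with a median of -0.26, and 0 passed without the trend. Fibronectin, Fn1, fell from 2376 and 1889 to 1240 and 858 (log2 -1.07, SE 0.11), thrombospondin Thbs2 by 0.78, and Col6a1 and Col5a2 by 0.60 and 0.57. With arrays centred on the median 2 fell and 1 rose and both collagen calls were lost. Of 11 tested matrix proteases and inhibitors 6 fell and 1 rose, and without the control pair 3 fell. The membrane-bound Mmp14 fell from 1245 and 1762 to 541 and 969 (log2 -1.06, SE 0.13), stromelysin Mmp3 from 26.6 and 273 to 13.0 and 113, and the aggrecanase Adamts4 by 1.15, more in the control line (-1.58) than in the TDAG8 line (-0.71), and the urokinase receptor Plaur rose by 0.72. Without the trend 0 of these passed. The call of Mmp3 was lost without the TDAG8 pair, and that of Plaur without the control pair.

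Transcription factors of development and mesenchymal identity were lower in 8 of 18 tested and higher in 2, with a median of -0.43, and 3 were lower without the trend. After Runx1t1 and Bnc1, Tcf4, an E-protein, fell from 2162 and 2160 to 842 and 665 (log2 -1.59, SE 0.12), and the homeobox gene Prrx1 from 1893 and 1745 to 677 and 866 (log2 -1.29, SE 0.14). Both were lower on each acid array than on either neutral one.

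RNA processing genes moved in both directions. Of 23 tested genes of splicing and pre-mRNA processing 8 fell and 6 rose, with a median of -0.03, and 4 fell without the trend. Those 4 were Srsf6, Cpsf6, Srsf2 and Srsf1. Srsf2, a splicing factor and exon definer, read 2305 and 413, and 2169 and 546 (log2 -2.28, SE 0.14, with 3 of 4 probe sets of that sign), and Srsf1 2227 and 992, and 2409 and 1027 (log2 -1.24, SE 0.10, 7 of 7). The neutral signals of the 2 lines nearly coincided for both genes. The control probe set for the B1 repeat, a short interspersed element found in introns and other transcripts, read 882 and 1199 at pH 7.4 (control and TDAG8 line) and 3587 and 2602 at pH 6.4 on the same arrays, and its part in these results was not tested.

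**Figure D3:**
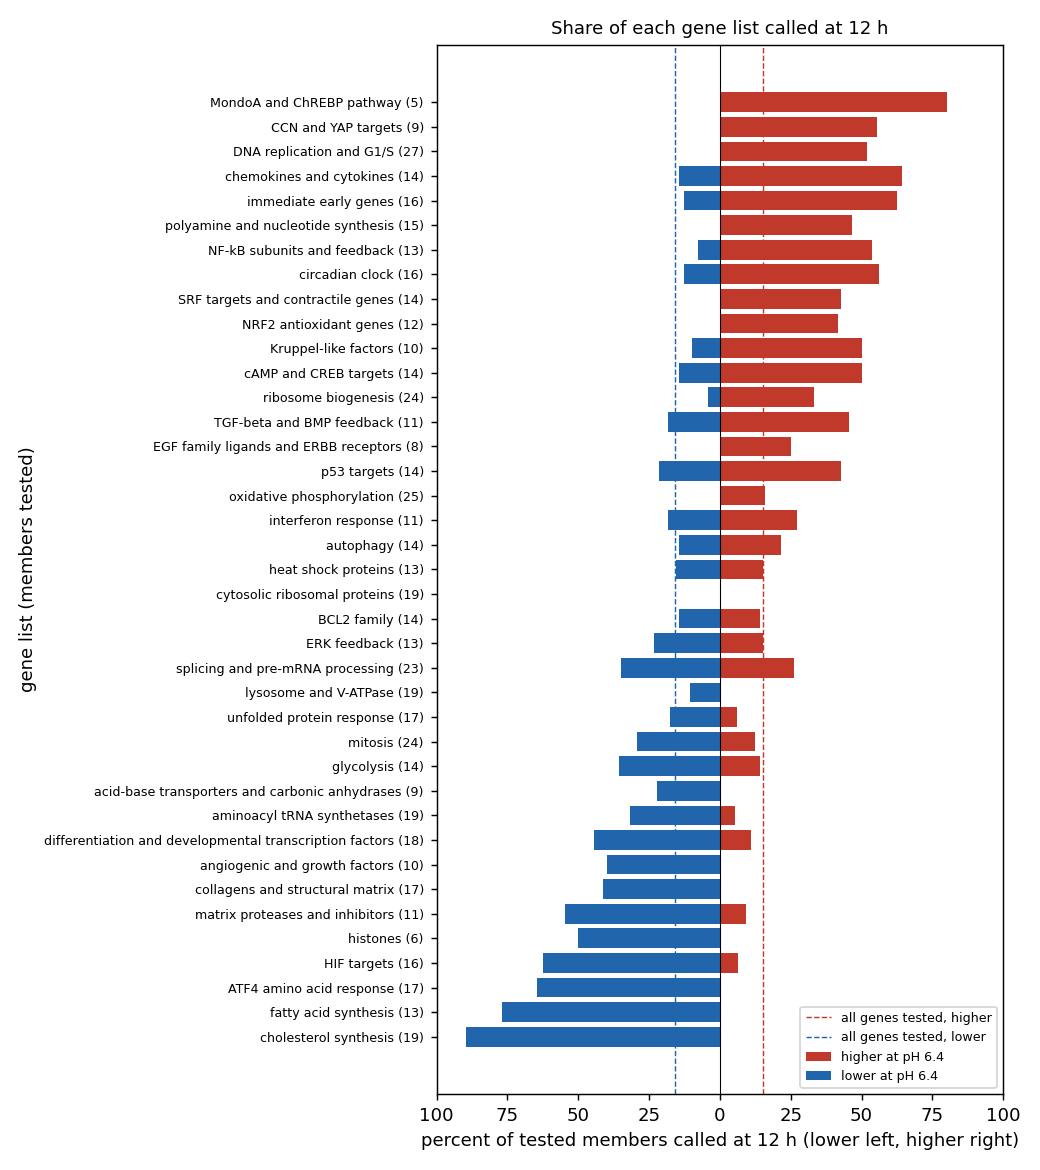
For each gene list, the percent of its tested members that were called at 12 h, higher at pH 6.4 to the right in red and lower to the left in blue, with the number tested in brackets and the shares of all genes, 15.3% and 16%, as dashed lines. The cholesterol bar, 17 of 19, reaches furthest to the left, and the MondoA bar, 4 of 5, furthest to the right.

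Of 27 tested replication and G1/S genes 14 rose and 0 fell, with a median of 0.52, and 2 rose without the trend. The origin-recognition gene Orc1 read 107 and 250, and 88.6 and 234 (log2 1.31, SE 0.16), and Cdc6, which loads the replicative helicase, 161 and 407, and 141 and 325 (log2 1.26, SE 0.15). The helicase subunit Mcm4 rose by 0.87 (SE 0.11) and the clamp loader subunit Rfc3 by 1.01 (SE 0.17). The sign was shared by both lines, while Tk1 (-0.23), E2f1 (-0.12) and Pola1 (-0.10) did not pass. Of 24 tested mitosis genes 7 fell and 3 rose, with a median of -0.15, where 16% of all genes fell and 15.3% rose. With arrays centred on the median 3 of the list fell and 7 rose. Without the control pair 10 fell and 3 rose, and without the TDAG8 pair 4 fell and 8 rose. Aurkb, a kinase of the chromosomal passenger complex, rose by 0.95 (SE 0.13), and the kinetochore motor Cenpe (-1.19, SE 0.18), survivin (Birc5, -0.60) and cyclin B2 (Ccnb2, -0.74) fell, Birc5 not with arrays centred on the median. Of 6 tested histone genes 3 fell, namely the linker histone H1f2, from 720 and 1007 to 156 and 368, H2bc21 (-0.57) and H2az1 (-0.46), and H1f2 alone passed without the trend. The call of H2bc21 was lost without either line's pair, and that of H2az1 without the control pair and with arrays centred on the median.

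Of 15 tested genes of polyamine and nucleotide synthesis 7 rose and 0 fell, with a median of 0.36, and 1 without the trend, the CTP synthase gene Ctps, which read 508 and 1591, and 414 and 1297 (log2 1.66, SE 0.12). Azin1, which frees ornithine decarboxylase from its inhibitor, rose by 1.07 (SE 0.11), the pyrimidine enzyme Dhodh by 0.81 and spermidine synthase Srm by 0.77. Myc, a driver of such genes of the immediate early list that was chosen after its values were seen, rose from 1000 and 898 to 2996 and 2160. Of 24 tested ribosome biogenesis genes 8 rose and 1 fell, with a median of 0.34, and 0 passed without the trend. Nip7 (1.04, SE 0.13), Nolc1 (0.86) and Wdr43 (0.86) rose, and Ubtf, which activates ribosomal RNA transcription, fell from 303 and 374 to 150 and 169. With arrays centred on the median 14 rose.

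Of 14 tested p53 targets 6 rose and 3 fell, with a median of 0.19, and 1 each way without the trend. The counts were 2 higher and 5 lower without the control pair. The cell cycle inhibitor Cdkn1a rose from 154 and 151 to 450 and 367 (log2 1.41, SE 0.15), and the death receptor genes Tnfrsf10b (1.77) and Fas (1.69) rose from signals of at most 13.3. Trp53inp1, a p53-induced autophagy factor, fell from 179 and 229 to 56.6 and 55.5. The call of Fas was lost without either line's pair, and that of Tnfrsf10b without the control pair. Of 12 tested NRF2 antioxidant genes 5 rose and 0 fell, with a median of 0.58, and 0 passed without the trend. They included Osgin1 (1.11, SE 0.16), the thioredoxin reductase Txnrd1, from 1349 and 1177 to 2517 and 2496, the glutathione synthesis subunit Gclc (0.75) and the quinone reductase Nqo1 (0.66). Clock genes rose in 9 of 16 and fell in 2, with a median of 0.64, and 2 rose without the trend. Per2, a repressor of the clock, read 18.2 and 84.9, and 19.0 and 69.2 (log2 2.02, SE 0.23), Cry1, its partner, 104 and 264, and 78.7 and 439 (log2 1.91, SE 0.24). Nr1d1 rose by 2.11 in the control line and 1.02 in the TDAG8 line, and its call was lost without the control pair. Of the list 4 rose and 1 fell without the control pair.

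The acid response at 12 h was then set against that at 4 h, with pH by time tested over the 8 treated arrays in both lines. The response differed between the times for 1742 genes (14.3%) by limma, 970 with a higher value at 12 h and 772 with a lower one. Of the 335 genes higher alike at 12 h, 77 were also higher by 1 or more in both lines at 4 h, and 132 had a value at 12 h above that at 4 h by the test. Of the 547 lower alike, 95 were lower by 1 or more at 4 h and 280 had a value at 12 h below that at 4 h by the test. Both sets were chosen by values at 12 h that also enter this test. That choice favours a larger response at 12 h than at 4 h. At 4 h itself 141 genes were higher alike and 360 lower. Without the trend 0 of 12161 passed this test by limma, with 3135 at an unadjusted p under 0.05 against 3739 with it. With the mean of all probe sets 1039 passed. With arrays centred on the median 80.8% of the called genes had the higher value at 12 h, against 55.7%.

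Several genes had a higher value at 12 h, some by a late rise and others because a fall at 4 h was gone. The AP-1 subunit Fosl1 had differences of -0.27 and -0.17 at 4 h (control and TDAG8 line) and 1.78 and 2.05 at 12 h, and Rdh9 -0.26 and 0.54 at 4 h and 2.21 and 2.64 at 12 h. Il15ra, the receptor subunit that presents interleukin 15, read 37.6 and 17.9, and 32.8 and 4.8, at 4 h and 36.7 and 96.2, and 41.9 and 94.6, at 12 h. Its direction turned between the times, by 2.96 (SE 0.43, limma adjusted p = 0.00798), and so did that of Arhgap39 (2.93, SE 0.34). Rbbp6, which takes part in the 3′ end formation of transcripts, was lower by 2.42 at 4 h and stood at -0.11 at 12 h, and Nfatc1, a calcium-regulated factor, at -1.99 and -0.09. For Rbbp6 the mean of its probe sets gave -0.30 for the difference of the times. For the response at 12 h alone, 1 of 5 probe sets of Nfatc1 had the sign of the one used. At 4 h the one used differed by -2.13 in the control line and -1.86 in the TDAG8 line. Its other probe sets differed by 0.82 to 1.84 and by -0.37 to 0.82, so the fall at 4 h rests on that probe set.

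Among the genes with the lower value at 12 h, Fos declined and others fell late. Fos had risen by 4.10 and 5.92 at 4 h and stood at 1.56 and 2.77 at 12 h. The histone gene H2aw was higher by 2.31 at 4 h and lower by 0.52 at 12 h (signals of 142 and 92.0, and 149 and 104). Sned1 differed by -0.63 at 4 h and -3.55 at 12 h, Tenm4 by -0.41 and -2.73 and Cpsf6 by -0.21 and -2.53. Acp2, a lysosomal acid phosphatase, differed by -0.06 at 4 h, when both pairs of arrays nearly coincided, and by -2.38 at 12 h.

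In the cholesterol list the medians were -0.16 at 4 h and -0.85 at 12 h, and for 15 of 19 genes the fall at 12 h exceeded that at 4 h by the test, where 772 of 12161 genes had the lower value at 12 h. Nsdhl went from -0.51 to -1.78 and Mvk from -0.62 to -1.81. For fatty acid synthesis the medians were -0.21 and -0.72 with 7 of 13 passing, for HIF targets -0.15 and -0.89 with 4 of 16, and for collagens 0.02 and -0.26 with 4 of 17. In the splicing list 6 of 23 were lower at 12 h than at 4 h and 3 higher. For replication genes the medians were 0.17 and 0.52 with 6 of 27 higher at 12 h, and for ribosome biogenesis 0.02 and 0.34 with 7 of 24. Per2 (0.08 at 4 h, 2.02 at 12 h) and Cry1 (0.08 and 1.91) rose late among the clock genes. The chemokine list was already high, with medians of 1.67 and 1.70, and 1 of 14, Cxcl2, had a lower value at 12 h (2.62 against 4.11). The MondoA list had medians of 2.24 and 1.40, with Arrdc3 lower at 12 h.

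**Figure D4:**
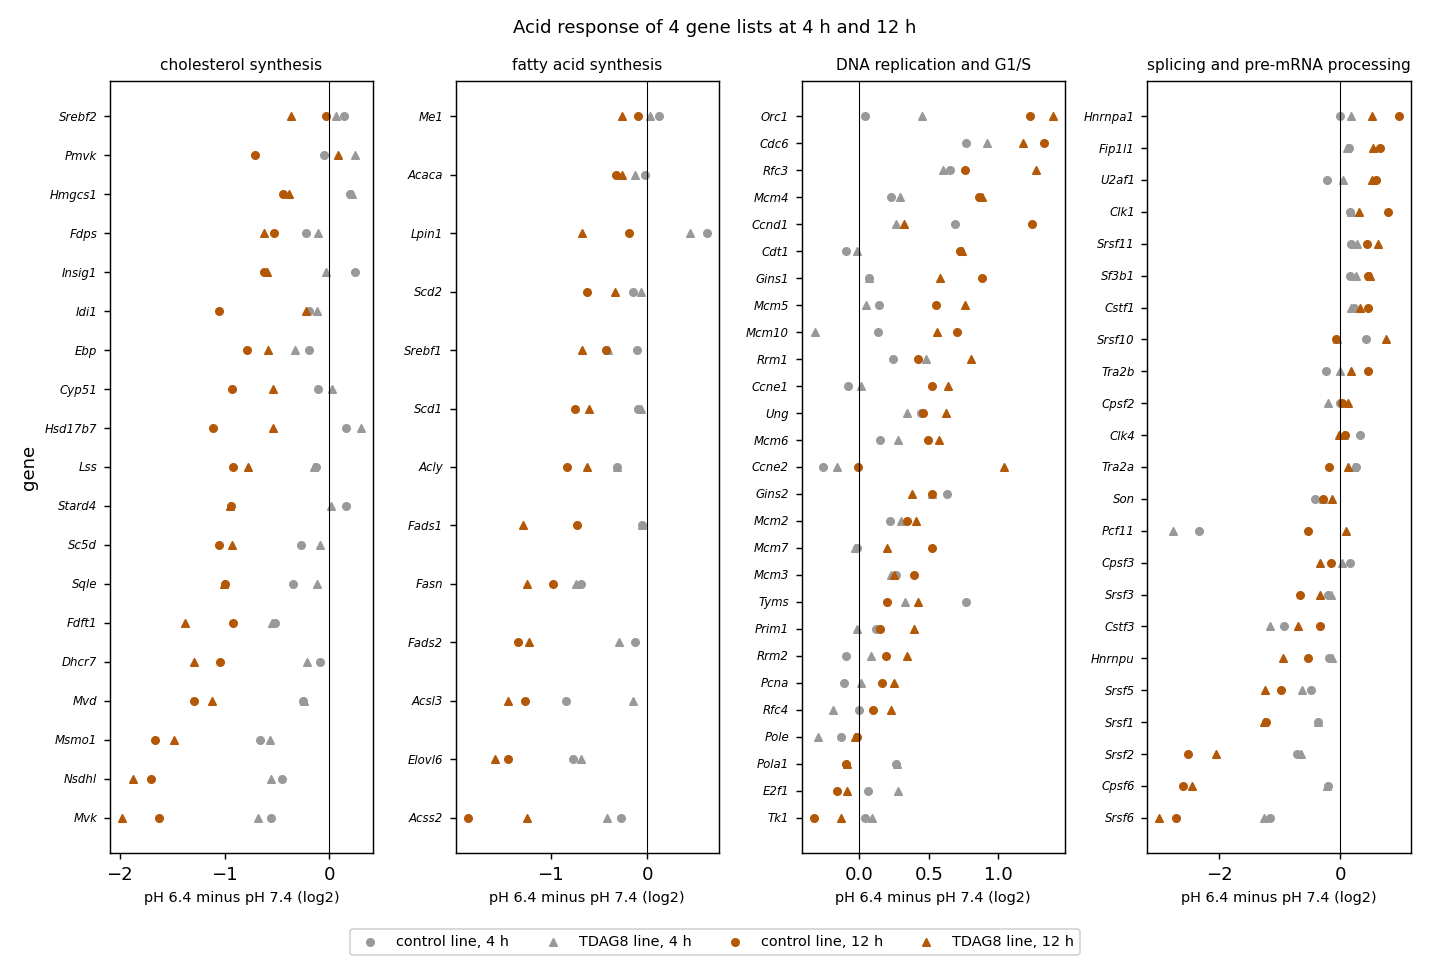
Log2 difference between pH 6.4 and pH 7.4 for each tested member of 4 gene lists, grey at 4 h and brown at 12 h, circles for the control line and triangles for the TDAG8 line. In the cholesterol panel the grey points centre on a median of -0.16 and the brown ones on -0.85, and in the replication panel on 0.17 and 0.52.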

How the data were processed

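The members and gene lists were chosen with earlier results of these data known. The deposited values are linear probe-set intensities from Affymetrix Mouse430 2.0 arrays, per the deposited table. How the authors summarised probes, and with which software, is not given in the sources used here. Each array had a 2% trimmed mean of 100, a common scale set by the authors. Of 45101 probe sets, 34945 with 1 gene symbol (18193 genes) were used. Left out were 932 with several symbols, 9160 with none and 64 control probe sets. The 10 arrays were quantile normalised and transformed to log2(signal + 2.36), the 20th percentile, so fold changes of low genes are understated. The probe set with the highest mean stood for a gene, and 12161 genes whose mean reached the 40th percentile (log2 3.17) were tested.

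limma 3.58.1 in R 4.3.3 (lmFit, eBayes with trend, Benjamini-Hochberg over all genes tested, adjusted p under 0.05) compared pH 6.4 with pH 7.4 at 12 h over 4 arrays with the line as a block (1 residual degree of freedom), and the pH by time term over 8 arrays (2 residual degrees of freedom). The number of arrays limits the precision, and the median SE at 12 h was 0.17. Genes past 1 in both lines were counted without a test. Among called genes with a signal of 50 or more and the same sign in both lines, the 12 higher and 12 lower with the largest smaller difference of the 2 lines were named, without predicted genes. By the same rank up to 4 called genes of each list with at least 2 called members were named, and 6 in each direction for 12 h against 4 h. Such a rank favours genes whose acid and neutral arrays do not overlap. The separations given for named genes therefore follow in part from how they were chosen. Promoter windows came from mouse RefSeq (GRCm38.p6), matched by symbol, and a gene the table does not hold was skipped. A gene with several annotated starts counted as holding a motif if any of its windows did. The share of all windows counts each window singly, so the measures are unlike. The scripts were tested on simulated data. Alternatives were other normalizations, pseudocounts and filters, the mean of probe sets, other variance models, no block, and each line's pair left out. With a line's 12 h pair left out, the fit used the other 8 arrays, with 1 array a side at 12 h. Its spread came from the arrays at 4 h and before treatment. A call lost there thus also depends on how the lines differed at those times.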

Additional observations from a re-analysis of the deposited data

Results flagged for a closer look

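For 21 of the genes in the 4 rankings (12 higher and 12 lower at 12 h, and 6 each way for 12 h against 4 h) the acid response at 12 h differed from that at 4 h by limma at an adjusted p under 0.05, in the same direction in both lines. The 6 each way were picked because they passed this test with the same sign in both lines. The 12 higher and 12 lower were picked by values at 12 h that enter it. The count of 21 therefore follows in part from the choice. The value at 12 h was higher for Il15ra (2.96 on the log2 scale), Arhgap39 (2.93), Rbbp6 (2.31), Rdh9 (2.28), Fosl1 (2.13), Nfatc1 (1.90) and Spata5l1 (1.20). It was lower for Sned1 (-2.92), Fos (-2.85), H2aw (-2.83), Mlph (-2.40), Tenm4 (-2.33), Cpsf6 (-2.32), Acp2 (-2.32), Pigh (-2.16), Atf5 (-2.11), Srsf6 (-1.64), Amigo1 (-1.63), Ccn4 (-1.60), Cxcl2 (-1.49) and Tjp1 (-1.35). Other genes of the lists also passed this test. None of the 21 passed it without the trend.

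The control probe set of the B1 repeat, which is no gene of the tests, read 3587.4 in the control line and 2602.3 in the TDAG8 line after 12 h at pH 6.4. At pH 7.4 it read 882 and 1199 at 12 h, and the 6 other arrays read 844 to 1456.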

How the results depend on the processing

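With 1 residual degree of freedom, the number of genes called at 12 h (3797) depends on how the spread is borrowed across genes. Without the trend 660 genes were called, and 641 of these were among the 3797 with the same sign. With the other settings tried the count lay between 2817 (no line block) and 4866 (spread from all 10 arrays). Without the control pair it was 3419 and without the TDAG8 pair 3503, where the lone array on each side is assumed to vary like the remaining ones. The remaining arrays that set this spread are those at 4 h and before treatment. The 882 genes alike in both lines became 402 with a pseudocount of 32 and 2467 with a limit of 0.58, and 620 to 1099 otherwise. For 12 h against 4 h, 1742 became 1039 with the mean of all probe sets and 0 without the trend, and 1348 to 2507 otherwise. The 24 genes of largest shared change kept their direction and call in every setting run for them. Without the trend they did so only just, at a limma adjusted p of 0.0487 to 0.0494. Averaging a gene's probe sets turned the sign for Mcl1 at 12 h (0.00, adjusted p = 0.999), Polr1a at 12 h (-0.05) and Rbbp6 for 12 h against 4 h (-0.30), and the cause was not tested. Of the 284 list and named genes followed at 12 h, 60 were not called without the control pair and 53 without the TDAG8 pair. Folds of genes with signals near the pseudocount of 2.36 depend on it. No paired analysis by replicate number was possible because the labels give none, and the line served as the block.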

Other observations

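Genes of protein synthesis and energy supply had medians near that of all genes (0.02). Of 19 tested cytosolic ribosomal protein genes 0 passed limma, with a median of 0.02, which was 0.28 with arrays centred on the median. Of 25 oxidative phosphorylation genes 4 rose, near the share of all genes (15.3%), and 0 fell, with a median of 0.11. Among the 4 were the complex III subunits Uqcrfs1 (0.60, SE 0.12) and Uqcrc2 (0.35, SE 0.12). Lysosome and V-ATPase genes, which handle acid inside cells, had 2 lower and 0 higher of 19 (6 and 1 without the control pair, 3 and 1 without the TDAG8 pair), Mcoln1 (-0.67) and Lamp2 (-0.56), the latter not with arrays centred on the median. Of 9 tested acid-base transporters and carbonic anhydrases 2 fell, the anion exchangers Slc4a2, from 168 and 202 to 69.7 and 56.3, and Slc4a3 (-1.05), the second not without either line's pair. The hypoxia-induced carbonic anhydrase Car9 (0.48) and the lactate exporters Slc16a1 (-0.16) and Slc16a3 (-0.34) did not pass.

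Protein quality and death genes were called in both directions, where 15.3% of all genes tested were higher and 16% lower. The counts of several lists below lie near those shares. Of 17 unfolded protein response genes 3 fell and 1 rose (3 and 0 without the control pair, 2 and 5 without the TDAG8 pair), with Sel1l (-0.94, SE 0.13) and Dnajb9 (-0.78, SE 0.13) the most alike, and the chaperone Hspa5 (0.10) did not pass. Of 13 heat shock genes 2 rose and 2 fell (2 and 0 without the control pair, 0 and 4 without the TDAG8 pair), where Hspa1a (0.90) and Hspb1 (0.81) rose and Dnajb1 (-0.49) and Hspa8 (-0.38) fell. Among 14 autophagy genes 3 rose and 2 fell, with Gabarapl1 at 0.86 and Bnip3 at -1.44. Of 14 BCL2 family genes the BH3-only gene Bmf fell by 1.70 (SE 0.28) and Pmaip1 rose by 1.03, while Bok rose by 0.81 and Mcl1 fell by 0.44. Of the family 1 rose and 3 fell without the control pair. Of 13 ERK feedback genes 2 rose and 3 fell (1 and 2 without the control pair, 1 and 3 without the TDAG8 pair). The phosphatase genes Dusp14 (1.91, SE 0.22) and Dusp10 rose, the second from 66.2 and 68.6 to 131 and 131. Dusp14 differed by 1.8 and 2.02 at 12 h (control and TDAG8 line), and by 0.08 and 2.51 at 4 h. Spry1 (-1.16) and Spry4 (-1.16) fell. Of 11 interferon response genes 3 rose and 2 fell, with Irf7 at 1.31 and Gbp2 at 1.49 higher and Ifit2 at -1.07 lower, and without the control pair 0 rose and 1 fell. The calls of Hspa1a, Pmaip1 and Dusp14 were lost without either line's pair, those of Dnajb1, Hspa8, Mcl1, Spry4, Irf7 and Gbp2 without the control pair, and those of Hspb1 and Ifit2 without the TDAG8 pair. Of the other marker lists 0 of 6 leukocyte, 0 of 4 epithelial and 0 of 2 lung epithelium genes passed, and 1 of 3 endothelial genes, Esam (-0.88), fell, though not without the TDAG8 pair.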
